A study of Mus musculus with 16 samples.

Results

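The genes described here encode the chaperones, disulfide isomerases and other factors that the endoplasmic reticulum (ER) makes in larger amounts during the unfolded protein response. They are 10 of the 29293 genes that could be tested: Hspa5, Hsp90b1, Dnajb9, Sdf2l1, Pdia4, Pdia6, Creld2, Manf, Herpud1 and Xbp1. The gene field of the scanner files held the symbol of a member for 0 probes, because it gives transcript accessions there. Members were therefore found by matching the accessions of a probe to RefSeq transcripts, which gave 12 of 60273 gene probes. Every member had 1 probe of its own except Pdia6, which had 2, and 1 further probe matched both Dnajb9 and the predicted gene Gm6568. All 12 probes were well above background on all 16 arrays and none was saturated, so every member passed the filter on dim signals.

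RNA came from differentiating mESCs of the line CGR8-Myh6-GFP, mouse embryonic stem cells that carry a GFP reporter of the cardiac myosin gene Myh6. They were grown as monolayers in multiwell plates and differentiated spontaneously. According to the paper, cardiomyocytes were later a small share of the cells in such cultures. From day 4 of differentiation the cultures received the vehicle DMSO, WS1442 at 0.25 mg/ml or MeOH eluate at 0.1 mg/ml, and were collected 6 h or 24 h later. WS1442 is a hawthorn leaf and flower extract, and the MeOH eluate is a fraction of it, so the treatments differ in dose as well as in composition. The groups were DMSO 6 h, WS1442 6 h, MeOH eluate 6 h, DMSO 24 h, WS1442 24 h and MeOH eluate 24 h, with 2 samples in each DMSO group and 3 in each treated group, and all 16 samples carried the reporter.

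One-colour Agilent arrays, 1 per sample, carried 61473 gene spots, of which 55.1% to 63.0% were well above background, with RNA integrity numbers of 8.6 to 10. Markers of pluripotent cells were present throughout, with 8 of 8 well above background on all arrays, and so were 11 of 12 markers of mesoderm and heart, whereas Myh6 itself was above background on 3 of 16 arrays. The labels name no separate cultures behind the replicate numbers, so the p-values measure the spread between these samples, which may be technical. All arrays of a time point were on 1 slide, and levels at 6 h and 24 h were therefore not compared, only the differences from DMSO. On each slide both DMSO arrays were in column 1, the WS1442 arrays in columns 2 and 3 and the MeOH eluate arrays in columns 3 and 4. A difference from DMSO therefore cannot be told apart from a difference between columns of the slide. Since whole cultures were measured, fewer cells of a type and less RNA per cell cannot be told apart. The summed signal of the 12 mesoderm and heart markers moved with treatment, from 12.0 (log2) in both DMSO 6 h samples to between 11.6 and 11.7 with WS1442 and between 11.2 and 11.3 with MeOH eluate, and from 12.0 in both DMSO 24 h samples to between 11.6 and 11.7 with WS1442 and between 11.3 and 11.4 with MeOH eluate. Such sums add linear signals, so the brightest markers weigh most, here Mixl1 and Pdgfra, at up to 11.0 and 9.9 (log2). Of the 11 that could be tested, 7 were below DMSO in the fit with WS1442 at 6 h and 6 with MeOH eluate. The median was -0.11 with each. At 24 h 8 were below DMSO with WS1442 and 10 with MeOH eluate, with medians of -0.17 and -0.34. There were 6 neuroectoderm markers, 4 of them above background on all arrays. Their sums were 12.2 in both DMSO 6 h samples and between 12.3 and 12.5 in MeOH eluate 6 h. At 24 h they were 11.7 in both DMSO samples, between 12.2 and 12.4 with WS1442 and between 12.0 and 12.2 with MeOH eluate. Nes was the brightest, at up to 12.4, ahead of Otx2 at up to 9.4. Of the 5 that could be tested, 3 were below DMSO in the fit with MeOH eluate at 6 h (median -0.23). In that comparison 2 were called lower and 1 higher, although the sum rose. With WS1442 at 6 h 4 were below DMSO (median -0.15). At 24 h 2 were below it with either treatment, and the median was 0.41 under WS1442 and 0.14 under MeOH eluate. The 10 markers of secretory and other endoderm, 4 of them above background on all arrays and 2 (Ttr and Apoa1) on none, summed to between 10.42 and 10.47 in DMSO 6 h, between 10.32 and 10.38 in WS1442 6 h and between 10.14 and 10.35 in MeOH eluate 6 h. With MeOH eluate at 6 h all 6 that could be tested were below DMSO in the fit, with a median of -0.47, and Foxa2 and Sox17 were called lower. At 24 h these sums were 10.60 to 10.66 with DMSO, 10.62 to 10.78 with WS1442 and 10.38 to 10.61 with MeOH eluate. The 7 markers of endothelium and blood, 5 of them above background on all arrays, overlapped between the groups at 6 h and summed to between 9.35 and 9.37 in DMSO 24 h, between 8.77 and 8.92 in WS1442 24 h and between 8.73 and 8.94 in MeOH eluate 24 h. Pecam1 and Tal1 were the brightest of them, at up to 8.5 and 8.3. With WS1442 at 24 h 6 of 7 were below DMSO in the fit (median -0.23). With MeOH eluate at 24 h 3 of 7 were below it (median 0.12), with values from -2.14 to 1.45. At 6 h the 8 pluripotency markers summed to between 14.65 and 14.72 with DMSO. The sums were 14.61 to 14.63 with WS1442 and 14.57 to 14.62 with MeOH eluate. At 24 h their sums were 13.93 to 14.00 with DMSO, 13.81 to 13.89 with WS1442 and 13.92 to 14.08 with MeOH eluate. In the fit 7 of 8 were below DMSO with each treatment at 6 h (medians -0.12 and -0.25). At 24 h 5 were below it with WS1442 (median -0.13) and 3 with MeOH eluate (median 0.07). The part of these shifts in the results below was not tested.

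The unfolded protein response is the transcriptional answer of a cell to misfolded protein in the ER. Its branches are known from textbooks: Ern1 (IRE1) splices the mRNA of the transcription factor Xbp1, Atf6 is released by cleavage, and Eif2ak3 (PERK) slows translation and raises Atf4 and Ddit3 (CHOP). Cleaved Atf6 and spliced Xbp1 act on promoters through the ER stress response element (ERSE), to which the factor NF-Y also binds, and cells with a high secretory load use the same genes without stress.

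The ERSE was looked for in the RefSeq promoters of the members (assembly GRCm38.p6, 250 bases before to 50 after the start of the gene), because Atf6 and Xbp1 are known to act through it. It was searched on both strands as CCAAT, 9 bases of any kind and CCACG, and its variant ERSE-II as ATTGG, 1 base of any kind and CCACG. A promoter was listed for 9 members and not for Manf. The ERSE was present in 4 of 9 (Hspa5, Hsp90b1, Pdia6 and Creld2) and ERSE-II in Herpud1, while the promoters of Pdia4, Sdf2l1, Dnajb9 and Xbp1 held neither string. Of 32851 mouse promoters of this length, 39 held the ERSE (0.119%) and 12 held ERSE-II (0.0365%), and the shared letters CCACG alone occurred in 32.8%. The stretches upstream of the start that hold the elements are given 5′ to 3′ on the strand of the gene, with the fixed letters of the element in capitals. Those of Hspa5, Herpud1, Pdia6 and Creld2 are the 160 bases before the start, and that of Hsp90b1, which holds 2 elements, the 250 bases before it.
Hspa5 (chr2:34771930-34772089, + strand): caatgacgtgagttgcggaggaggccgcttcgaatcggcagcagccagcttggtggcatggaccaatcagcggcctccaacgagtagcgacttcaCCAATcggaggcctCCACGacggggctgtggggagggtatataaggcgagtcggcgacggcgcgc
Herpud1 (chr8:94386269-94386428, + strand): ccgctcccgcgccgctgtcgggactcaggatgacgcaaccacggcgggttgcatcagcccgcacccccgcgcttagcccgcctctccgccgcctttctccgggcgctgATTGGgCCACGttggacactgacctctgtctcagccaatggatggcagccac
Hsp90b1 (chr10:86705445-86705694, - strand): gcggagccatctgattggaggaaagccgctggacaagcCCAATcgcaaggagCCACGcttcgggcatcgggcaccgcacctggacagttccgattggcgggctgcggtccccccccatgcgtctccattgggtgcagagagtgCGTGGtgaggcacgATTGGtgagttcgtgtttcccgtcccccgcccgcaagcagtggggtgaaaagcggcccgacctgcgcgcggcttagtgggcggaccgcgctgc
Pdia6 (chr12:17266429-17266588, + strand): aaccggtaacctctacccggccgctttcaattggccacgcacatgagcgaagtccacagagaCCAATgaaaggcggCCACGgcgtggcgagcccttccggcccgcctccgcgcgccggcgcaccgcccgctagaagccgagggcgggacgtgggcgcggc
Creld2 (chr15:88819486-88819645, + strand): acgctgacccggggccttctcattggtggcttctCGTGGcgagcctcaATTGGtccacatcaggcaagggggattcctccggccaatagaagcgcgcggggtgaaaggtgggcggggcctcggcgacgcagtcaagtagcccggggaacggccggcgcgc
The element began 65 bases before the start in Hspa5, 98 in Pdia6, 126 in Creld2, and 212 and 107 in Hsp90b1, and ERSE-II began 52 bases before the start in Herpud1. A match of letters is a description and not a measured binding site.

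After 6 h with WS1442, none of the 10 genes passed the test, and the median log2 (fold change) of the members was 0.00. At an adjusted p-value under 0.05 (limma, Benjamini-Hochberg over all 29293 genes), 1.46% of all genes were called lower and 4.14% higher in this comparison. No member had all WS1442 samples below both DMSO samples, a pattern that 15.8% of all genes showed. With the MeOH eluate at the same time point, 6 of 10 members were lower (Pdia4, Manf, Herpud1, Creld2, Sdf2l1 and Hsp90b1) and none was higher, where 8.38% of all genes were called lower and 8.66% higher. The median of the members was -0.27, beside a median of 0.00 over all genes, and 9 of 10 members, all but Xbp1, had every treated sample below both DMSO samples (24.6% of all genes). After 24 h with WS1442, again 6 of 10 members were lower (Creld2, Herpud1, Hsp90b1, Pdia4, Pdia6 and Manf) and none higher, against 11.9% of all genes lower and 12.9% higher. The median of the members was -0.26 and that of all genes 0.05. Every WS1442 24 h sample lay below both DMSO samples for 7 members (23.4% of all genes). After 24 h with the MeOH eluate, 3 of 10 were lower (Herpud1, Hsp90b1 and Creld2), against 8.6% lower and 9.64% higher among all genes, with a member median of -0.20 beside 0.01 over all genes. Every treated sample lay below both DMSO samples for 8 members (21.5% of all genes). No member reached the 2-fold limit of the study in any comparison, so these were changes within a factor of 2.

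**Figure D1:**
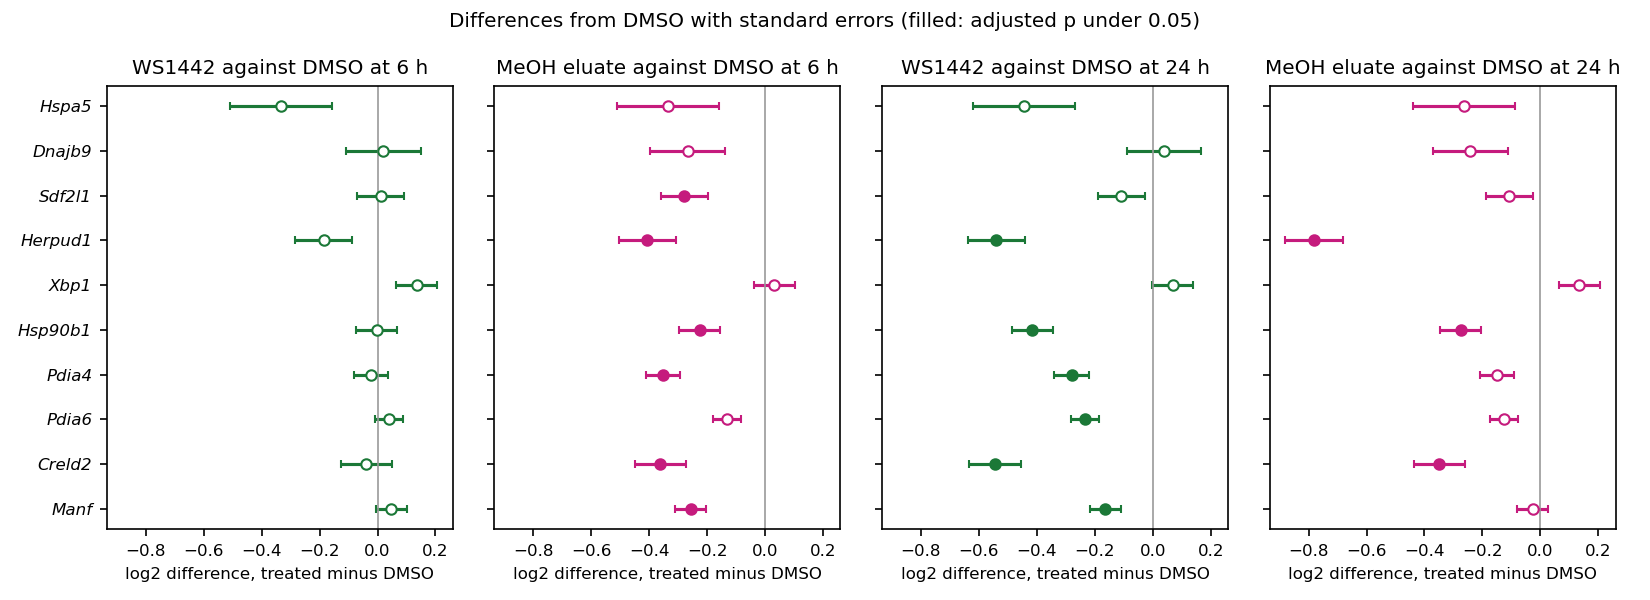
Log2 difference from DMSO of the same time point for each of the 10 genes, with standard errors from the fit; filled points have an adjusted p-value under 0.05. With WS1442 at 6 h no point is filled, with MeOH eluate at 6 h and WS1442 at 24 h 6 points are filled, and with MeOH eluate at 24 h 3 points are filled, all below 0, while Xbp1 stays at or above 0 in all 4 panels.

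Counts with so few control samples depended on single arrays. Without DMSO 6 h replicate 2, 1 of 10 members was called lower with the MeOH eluate at 6 h. Without DMSO 24 h replicate 1, 3 of 10 were called with WS1442 at 24 h and 1 of 10 with the MeOH eluate, and without DMSO 24 h replicate 2 these counts were 6 and 5. The methods' t-test (2-sided, equal variances), applied to the same values, called 0 members in every comparison after Benjamini-Hochberg adjustment; at an unadjusted p-value under 0.05 it had 0, 6, 6 and 2 members for WS1442 6 h, MeOH eluate 6 h, WS1442 24 h and MeOH eluate 24 h, and limma had 0, 7, 7 and 5. The DMSO 24 h samples differed from each other in 1 direction: replicate 1 was above replicate 2 for 10 of 10 members, by a median of 0.19 on the log2 scale, whereas the median over all genes was -0.01 with an SD of 0.54. Against DMSO 24 h replicate 2 alone, the WS1442 24 h means of the 6 called members were between -0.42 for Creld2 and -0.08 for Manf. In DMSO 6 h, replicate 1 was below replicate 2 for 10 of 10 members, by a median of -0.10 (SD over all genes 0.29). The incorporated dye also moved with group at 24 h, with 25.8 to 26.1 pmol Cy3 per µg in DMSO, 31.8 to 32.8 in WS1442 and 27.1 to 30.3 in MeOH eluate, and its part in the differences was not tested.

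**Figure D2:**
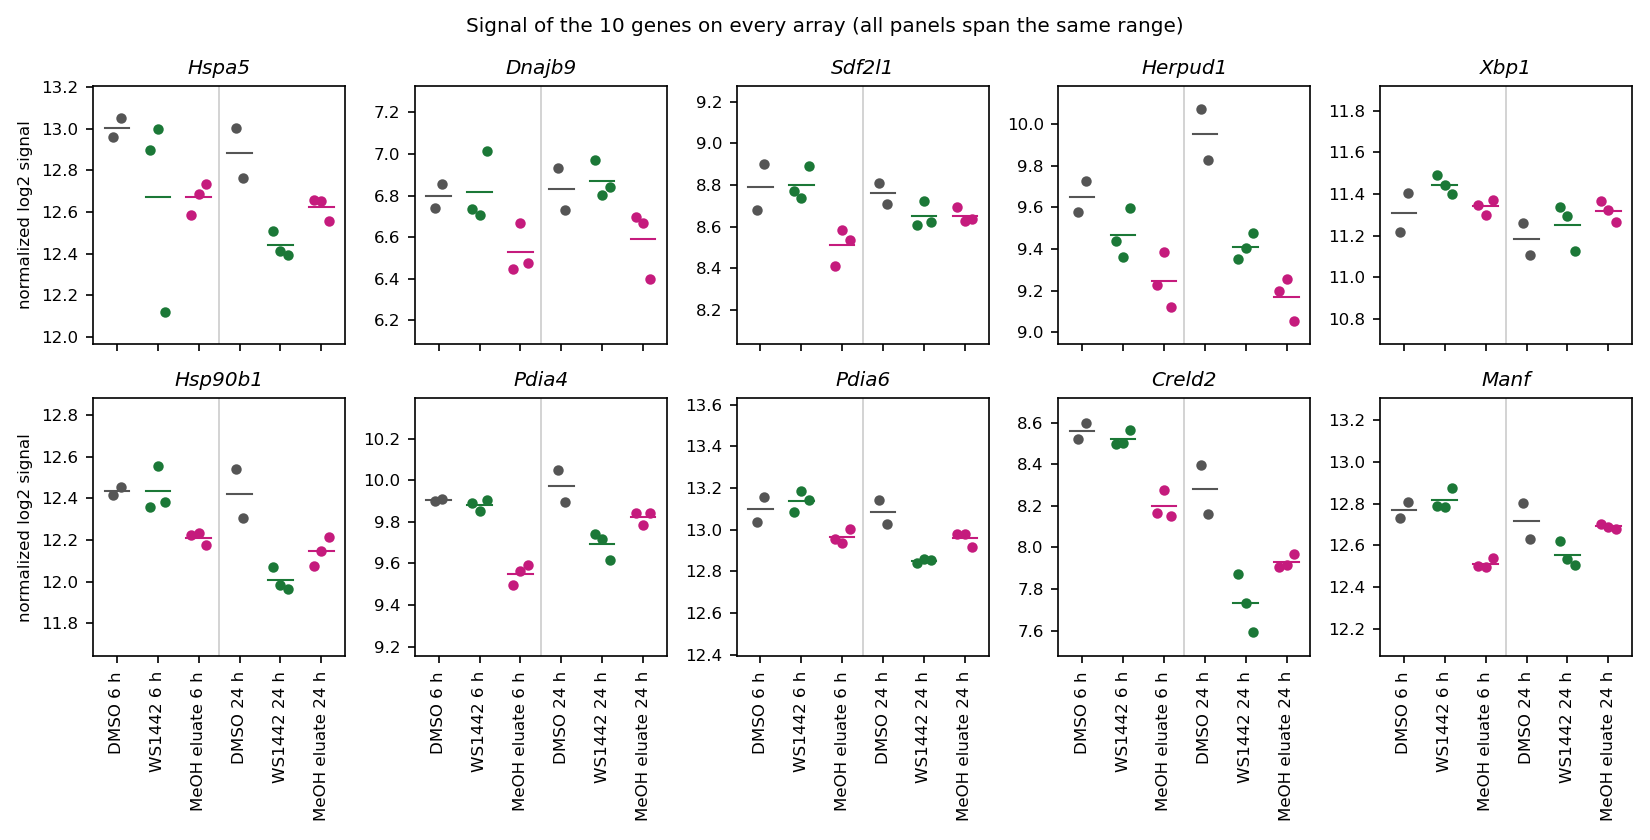
Normalized log2 signal of each gene on every array, by group, with the group mean as a line; the panels have different centres and the same height. The group DMSO 24 h shows 1 sample above the other in every panel, and the third sample of WS1442 6 h stands far below the rest for Hspa5 and for no other gene.

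The chaperones of the ER lumen come first. Hspa5 encodes BiP, the main Hsp70 chaperone of the ER and the protein that holds the sensors inactive. Its normalized log2 signals were 12.96 and 13.05 in DMSO 6 h, 12.90, 13.00 and 12.12 in WS1442 6 h, and 12.59, 12.69 and 12.74 in MeOH eluate 6 h. After 24 h they were 13.01 and 12.76 with DMSO, 12.51, 12.41 and 12.40 with WS1442, and 12.66, 12.65 and 12.56 with MeOH eluate. Every treated sample except WS1442 6 h replicate 2 was below both DMSO samples of its time point. The fit gave -0.33 ± 0.18 (SE) for WS1442 6 h, -0.33 ± 0.18 for MeOH eluate 6 h, -0.45 ± 0.18 for WS1442 24 h and -0.26 ± 0.18 for MeOH eluate 24 h, with adjusted p-values of 0.321, 0.219, 0.0801 and 0.366 (limma), and Hspa5 passed in none of them.

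One array decided these Hspa5 results. On WS1442 6 h replicate 3 the spot of Hspa5 deviated by -0.78 from its median on the other 6 h arrays (log2, deviations centred on the array), and the spot lies in a dim area of that array. Among the 215 bright spots within 10 rows and 10 columns of it, 28.8% deviated by less than -0.5, while 7.01% of all bright spots on that array did. Over the other combinations of member probe and array this share was at most 20.9%, for the brighter Pdia6 probe on that same array. There it was also 18.1% for the probe shared by Dnajb9 and Gm6568, 15.3% for Dnajb9 and 12.9% for Pdia4. The lowest there was 0.595%, for Creld2. Without that array the WS1442 6 h difference of Hspa5 was -0.06 ± 0.08 (n = 2, adjusted p = 0.813, limma). Because the fit shares 1 estimate of the spread, the other comparisons changed as well, although their means did not: -0.33 ± 0.07 for MeOH eluate 6 h (adjusted p = 0.00469), -0.45 ± 0.07 for WS1442 24 h (adjusted p = 0.000465) and -0.26 ± 0.07 for MeOH eluate 24 h (adjusted p = 0.0165), all by limma and all called lower. The count of members called was then 7 of 10 for MeOH eluate 6 h, 7 of 10 for WS1442 24 h and 4 of 10 for MeOH eluate 24 h. The part of the dim area in the low value was not tested.

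**Figure D3:**
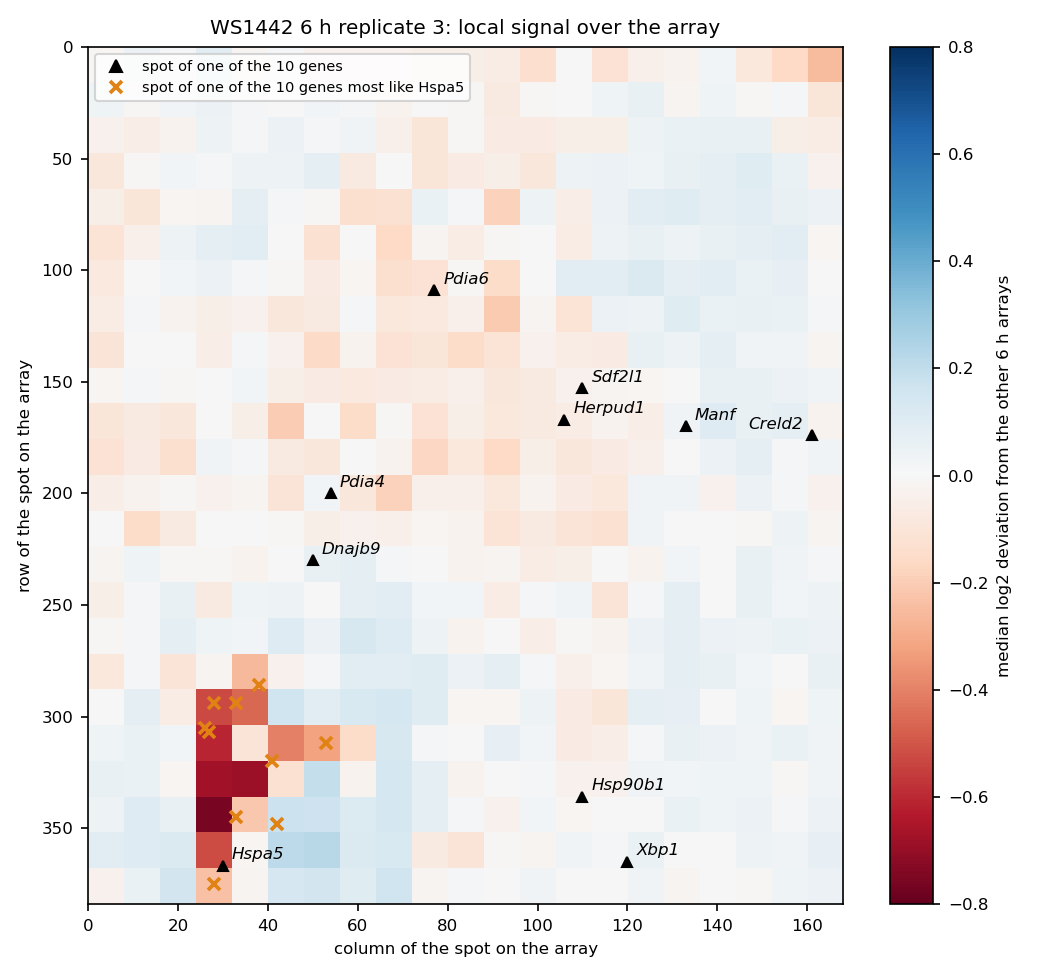
Map of the array of WS1442 6 h replicate 3: colour is the median log2 deviation of the bright spots in blocks of the array from the other 6 h arrays, triangles are the member spots, and crosses are the spots of the 10 genes most like Hspa5 over all 16 arrays. Hspa5 and the crosses lie in or beside the red area at the lower left, and the other members lie away from it.

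Hsp90b1 encodes Grp94, the Hsp90 chaperone of the ER. Its log2 signals were 12.42 and 12.46 in DMSO 6 h, 12.36, 12.56 and 12.38 in WS1442 6 h, and 12.22, 12.23 and 12.18 in MeOH eluate 6 h. The 24 h signals were 12.54 and 12.30 with DMSO, 12.07, 11.98 and 11.96 with WS1442, and 12.08, 12.15 and 12.21 with MeOH eluate. Every sample with MeOH eluate and every WS1442 24 h sample was below its DMSO samples, and the WS1442 6 h samples overlapped them. Hsp90b1 was lower, at -0.23 ± 0.07 (SE) with MeOH eluate at 6 h (adjusted p = 0.0396, limma), at -0.42 ± 0.07 with WS1442 at 24 h (adjusted p = 0.000719, limma) and at -0.28 ± 0.07 with MeOH eluate at 24 h (adjusted p = 0.0126, limma). With WS1442 at 24 h its signal fell by 25.0%. The call with MeOH eluate at 6 h was lost in 9 of 18 alternative settings.

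Dnajb9 and Sdf2l1 are helpers of BiP: Dnajb9 (ERdj4) is a J-domain co-chaperone that also restrains Ern1, and Sdf2l1 binds J-domain proteins in the lumen. Dnajb9 passed in no comparison. Its log2 signals were 6.74 and 6.86 in DMSO 6 h, 6.74, 6.71 and 7.01 in WS1442 6 h, and 6.45, 6.67 and 6.48 in MeOH eluate 6 h, and at 24 h 6.93 and 6.73 with DMSO, 6.97, 6.80 and 6.84 with WS1442, and 6.70, 6.67 and 6.40 with MeOH eluate. The MeOH eluate samples were below DMSO at both time points, with fitted differences of -0.27 ± 0.13 (SE) and -0.24 ± 0.13, and the WS1442 samples overlapped DMSO at both. The probe shared with Gm6568 gave 0.10 and -0.18 for MeOH eluate at 6 h and 24 h, and was called in none of the comparisons.

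Sdf2l1 passed the test only with MeOH eluate at 6 h, where it was lower (-0.28 ± 0.08 (SE), adjusted p = 0.0292, limma), and this call was lost in 6 of 18 alternative settings. Its log2 signals at 6 h were 8.68 and 8.90 with DMSO, 8.77, 8.74 and 8.89 with WS1442, and 8.41, 8.59 and 8.54 with MeOH eluate. At 24 h they were 8.81 and 8.71 with DMSO, 8.61, 8.72 and 8.62 with WS1442, and 8.69, 8.63 and 8.64 with MeOH eluate. The difference at 24 h was -0.11 ± 0.08 with each treatment and did not pass. Whether the effect of MeOH eluate on Sdf2l1 differed between the time points did not pass either (0.17 ± 0.11).

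Of the disulfide isomerases, Pdia4 (ERp72) and Pdia6 (P5) form and rearrange disulfide bonds of client proteins. Pdia4 log2 signals were 9.90 and 9.91 in DMSO 6 h, 9.89, 9.85 and 9.90 in WS1442 6 h, and 9.50, 9.56 and 9.59 in MeOH eluate 6 h. After 24 h they were 10.05 and 9.89 with DMSO, 9.74, 9.72 and 9.61 with WS1442, and 9.84, 9.78 and 9.84 with MeOH eluate. Pdia4 was thus lower, at -0.35 ± 0.06 (SE) with MeOH eluate at 6 h (adjusted p = 0.00102, limma), where its signal fell by 21.7%, and at -0.28 ± 0.06 with WS1442 at 24 h (adjusted p = 0.0033, limma). With MeOH eluate at 24 h it was -0.15 ± 0.06 and did not pass (adjusted p = 0.102, limma), and with WS1442 at 6 h it was -0.02 ± 0.06.

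Pdia6 was measured by 2 probes, which agreed in direction in the 4 comparisons with DMSO but not in size. The brighter probe, used for the gene, read 13.04 and 13.16 in DMSO 6 h, 13.08, 13.18 and 13.14 in WS1442 6 h, and 12.96, 12.93 and 13.00 in MeOH eluate 6 h. At 24 h it read 13.14 and 13.03 with DMSO, 12.84, 12.86 and 12.86 with WS1442, and 12.98, 12.98 and 12.92 with MeOH eluate. The gene passed the test only with WS1442 at 24 h (-0.23 ± 0.05 (SE), adjusted p = 0.00241, limma), with all WS1442 samples below all MeOH eluate and DMSO samples of that time point. The dimmer probe was called in 3 of the 4 comparisons, at -0.31 ± 0.07 for MeOH eluate 6 h, -0.51 ± 0.07 for WS1442 24 h and -0.22 ± 0.07 for MeOH eluate 24 h. At 24 h that probe was also 0.28 ± 0.06 higher with MeOH eluate than with WS1442 (adjusted p = 0.0106, limma), where the brighter probe gave 0.11 ± 0.04 and did not pass.

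Creld2 and Manf encode secretory-pathway factors that are released when ER calcium or folding is disturbed. Creld2 log2 signals were 8.52 and 8.60 in DMSO 6 h, 8.49, 8.50 and 8.56 in WS1442 6 h, and 8.17, 8.28 and 8.15 in MeOH eluate 6 h. The 24 h signals were 8.40 and 8.16 with DMSO, 7.87, 7.73 and 7.60 with WS1442, and 7.91, 7.92 and 7.97 with MeOH eluate. Every WS1442 24 h sample and every MeOH eluate sample lay below its DMSO samples. Creld2 fell in 3 of the 4 comparisons, at -0.36 ± 0.09 (SE) with MeOH eluate at 6 h (adjusted p = 0.0124, limma), at -0.54 ± 0.09 with WS1442 at 24 h (adjusted p = 0.000562, limma) and at -0.35 ± 0.09 with MeOH eluate at 24 h (adjusted p = 0.0128, limma). With WS1442 at 24 h its signal fell by 31.4%. With WS1442 at 6 h the difference was -0.04 ± 0.09.

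Manf log2 signals were 12.73 and 12.81 in DMSO 6 h, 12.79, 12.78 and 12.88 in WS1442 6 h, and 12.50, 12.50 and 12.54 in MeOH eluate 6 h. At 24 h they were 12.80 and 12.63 with DMSO, 12.62, 12.54 and 12.50 with WS1442, and 12.70, 12.69 and 12.68 with MeOH eluate. Manf was lower with MeOH eluate at 6 h (-0.26 ± 0.05 (SE), adjusted p = 0.0042, limma) and with WS1442 at 24 h (-0.16 ± 0.05, adjusted p = 0.0357, limma), and the MeOH eluate samples at 24 h overlapped DMSO (-0.03 ± 0.05). The call at 24 h was lost in 8 of 18 alternative settings. Apart from this call and those of Hsp90b1 and Sdf2l1 with MeOH eluate at 6 h, given above, no call of a member against DMSO was lost in more than 3 settings.

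Herpud1 encodes an ER membrane protein of the degradation machinery that clears misfolded proteins, and with MeOH eluate at 24 h it showed the largest change of any member in the comparisons with DMSO. Its log2 signals were 9.58 and 9.73 in DMSO 6 h, 9.44, 9.36 and 9.60 in WS1442 6 h, and 9.23, 9.39 and 9.12 in MeOH eluate 6 h. After 24 h they were 10.07 and 9.83 with DMSO, 9.35, 9.40 and 9.48 with WS1442, and 9.20, 9.26 and 9.05 with MeOH eluate. Each treated sample at 24 h and each MeOH eluate sample at 6 h was below both DMSO samples, and the WS1442 6 h samples overlapped them. The differences were -0.41 ± 0.10 (SE) with MeOH eluate at 6 h (adjusted p = 0.0111, limma), -0.54 ± 0.10 with WS1442 at 24 h (adjusted p = 0.00119, limma) and -0.78 ± 0.10 with MeOH eluate at 24 h (adjusted p = 5.81e-05, limma), and in the last its signal fell by 41.8%. With WS1442 at 6 h it was -0.19 ± 0.10 and did not pass (adjusted p = 0.322, limma). Taken against each DMSO 24 h sample alone, the WS1442 means were -0.66 and -0.42 apart and the MeOH eluate means -0.90 and -0.66.

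Xbp1 is the transcription factor that Ern1 activates by splicing. Its probe matches both of its RefSeq transcripts, so the spliced and unspliced mRNA were not told apart, and only the sum was measured. Its log2 signals were 11.22 and 11.40 in DMSO 6 h, 11.49, 11.44 and 11.40 in WS1442 6 h, and 11.35, 11.30 and 11.37 in MeOH eluate 6 h. The 24 h signals were 11.26 and 11.11 with DMSO, 11.34, 11.30 and 11.13 with WS1442, and 11.37, 11.32 and 11.27 with MeOH eluate. Xbp1 passed in none of the comparisons, and its differences were 0.13, 0.03, 0.07 and 0.13, each with an SE of 0.07. The 95% interval of the WS1442 24 h difference ran from -0.08 to 0.22. Every MeOH eluate 24 h sample was above both DMSO samples, and the interval of that difference ran from -0.02 to 0.29.

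The effect of WS1442 at 24 h was more negative than its effect at 6 h for Hsp90b1 (-0.41 ± 0.10 (SE), adjusted p = 0.016, limma), Pdia6 (-0.27 ± 0.07, adjusted p = 0.0166, limma) and Creld2 (-0.51 ± 0.13, adjusted p = 0.0185, limma). That is 3 of 10 members, where 6.96% of all genes were called in this direction. Without WS1442 6 h replicate 3, Hspa5 joined them (-0.39 ± 0.10, adjusted p = 0.0324, limma), and without DMSO 24 h replicate 1 or DMSO 6 h replicate 1 none of the 10 passed. For the MeOH eluate the difference between time points passed the test for none of the 10 genes (7.78% of all genes in either direction). Values ran from -0.37 ± 0.14 for Herpud1 (adjusted p = 0.126, limma) to 0.23 ± 0.07 for Manf (adjusted p = 0.0788, limma). Before adjustment the p-values were 0.00798 for Manf, 0.0173 for Herpud1 and 0.0288 for Pdia4 (limma). With 2 DMSO samples per time point, equal effects at 6 h and 24 h cannot be concluded from this.

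Set directly against WS1442 at the doses given, which differ, the MeOH eluate gave lower signals at 6 h for Manf (-0.30 ± 0.05 (SE)), Pdia4 (-0.33 ± 0.05), Creld2 (-0.32 ± 0.08), Sdf2l1 (-0.29 ± 0.07), Hsp90b1 (-0.22 ± 0.06) and Pdia6 (-0.17 ± 0.04), with adjusted p-values from 0.00138 to 0.0346 (limma). These are 6 of 10 members, where 7.35% of all genes were called lower, and the counts without single arrays ran from 2 to 6. Leaving out WS1442 6 h replicate 3, MeOH eluate 6 h replicate 1 or MeOH eluate 6 h replicate 3 brought the count to 3, 2 and 3. At 24 h none of the 10 passed (14.6% of all genes in either direction). The differences (MeOH eluate minus WS1442) ran from -0.28 for Dnajb9 (95% interval -0.53 to -0.04) and -0.24 for Herpud1 (-0.43 to -0.05) to 0.20 for Creld2 (0.02 to 0.37). Without WS1442 24 h replicate 1, 2 members were called higher with the MeOH eluate.

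Across the 16 samples, with each gene centred on the mean of its time point, the members varied together to different degrees. Hsp90b1 and Creld2 had a Pearson r of 0.94, Pdia4 and Manf 0.94, and Pdia4 and Creld2 0.93, whereas Herpud1 and Xbp1 had -0.33, and the median r of Xbp1 with the others was 0.08. These correlations share the treatment groups and the arrays and are given as a description. For Hspa5 the median r with the other members was 0.36 over 16 samples and 0.88 over 15, without WS1442 6 h replicate 3. Among 17511 other annotated genes that were well above background on all arrays, the 10 with the pattern most like that of Hspa5 over 16 samples were Coil, Ccnq, Mtf2, Mrpl21, Gm5469, Pitpnb, Zfp119a, Mmp14, Zfp133-ps and Dpf2, with Coil at r = 0.94, and the members ranked from 264 for Hsp90b1 to 9048 for Dnajb9. Spots of all 10 lie within 81 rows and 23 columns of the Hspa5 spot on the array, and on WS1442 6 h replicate 3 they deviated by -1.53 to -0.25 from the other 6 h arrays (log2). Without that array Creld2 ranked 4 (r = 0.95), Pdia6 ranked 6 (r = 0.94), Pdia4 ranked 15 and Hsp90b1 ranked 22, and the leading gene was Ahsa1, a co-chaperone of cytosolic Hsp90 (r = 0.96).

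The series' other genes of the response showed how the members stood among them. Of 20 further folding factors of the ER (chaperones, disulfide isomerases, prolyl isomerases), none was lower and 1 was higher with WS1442 at 6 h, 1 was lower and 2 higher with MeOH eluate at 6 h, 12 were lower and none higher with WS1442 at 24 h, and 6 were lower and none higher with MeOH eluate at 24 h. Over all genes the shares lower were 1.46%, 8.38%, 11.9% and 8.6%, and those higher 4.14%, 8.66%, 12.9% and 9.64%, in the order WS1442 6 h, MeOH eluate 6 h, WS1442 24 h and MeOH eluate 24 h. The medians of the folding factors were 0.07, -0.01, -0.25 and -0.10 in that order, beside 0.00, -0.27, -0.26 and -0.20 for the members. The largest were Fkbp2 (-0.51 ± 0.06 (SE)), Txndc11 (-0.43 ± 0.08) and Ppib (-0.43 ± 0.07) with WS1442 at 24 h, and Ero1a (-0.60 ± 0.11), Fkbp2 (-0.31 ± 0.06) and Txndc11 (-0.26 ± 0.08) with MeOH eluate at 24 h. At 6 h Canx, the lectin chaperone calnexin, was higher with both treatments (0.22 ± 0.06 and 0.20 ± 0.06), and with MeOH eluate Ero1a, which oxidises disulfide isomerases, was higher (0.35 ± 0.11) and Dnajb11, a BiP co-chaperone, lower (-0.27 ± 0.07). Ero1a was thus called higher at 6 h and lower at 24 h with the MeOH eluate.

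Of 28 genes of ER-associated degradation and protein translocation, 27 could be tested. Those lower were 0, 2, 10 and 3, and those higher 1, 6, 1 and 3, for WS1442 6 h, MeOH eluate 6 h, WS1442 24 h and MeOH eluate 24 h. As shares of the list, 0%, 7.41%, 37% and 11.1% were lower, beside 1.46%, 8.38%, 11.9% and 8.6% of all genes. Those higher were 3.7%, 22.2%, 3.7% and 11.1%, beside 4.14%, 8.66%, 12.9% and 9.64%. With MeOH eluate the share lower at 6 h and both shares at 24 h were thus near those of all genes. Os9, a lectin of ER-associated degradation, was higher with WS1442 at 6 h (0.28 ± 0.07 (SE)). With MeOH eluate at 6 h Sec23b (-0.31 ± 0.07), a coat protein of vesicles leaving the ER, and the signal peptidase subunit Spcs2 (-0.24 ± 0.06) were lower, and Edem3 was higher (0.27 ± 0.08). With WS1442 at 24 h Srp19 (-0.32 ± 0.08) and the translocon subunit Sec61b (-0.30 ± 0.06) were lower and Derl1 higher (0.31 ± 0.05). With MeOH eluate at 24 h Spcs2 (-0.39 ± 0.06) and Sec61a1 (-0.31 ± 0.07) were lower and Derl2 was higher (0.40 ± 0.05). Derl1 and Derl2 are paralogues of the degradation channel. Herpud1 fell with both treatments at 24 h, while Derl2, of the same machinery, rose with the MeOH eluate.

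Changes were wider among 18 genes of the PERK branch and of amino acid deprivation, which Atf4 drives. Lower were 2, 6, 12 and 11, and higher 2, 3, 2 and 2, for WS1442 6 h, MeOH eluate 6 h, WS1442 24 h and MeOH eluate 24 h. As shares of the list, 11.1%, 33.3%, 66.7% and 61.1% were lower, beside 1.46%, 8.38%, 11.9% and 8.6% of all genes. Those higher were 11.1%, 16.7%, 11.1% and 11.1%, beside 4.14%, 8.66%, 12.9% and 9.64%. The glutathione-degrading enzyme Chac1 was lower at -0.49 ± 0.12 (SE) with WS1442 at 6 h, at -1.47 ± 0.12 with MeOH eluate at 6 h and at -1.93 ± 0.12 with MeOH eluate at 24 h. Trib3, a pseudokinase, was lower at -1.11 ± 0.14 with WS1442 and at -1.97 ± 0.14 with MeOH eluate at 24 h. Vldlr, a lipoprotein receptor, was lower at -0.89 ± 0.11 with MeOH eluate at 6 h, at -0.73 ± 0.11 with WS1442 at 24 h and at -1.46 ± 0.11 with MeOH eluate at 24 h, and Nupr1 at -0.83 ± 0.18 with WS1442 at 24 h. In the other direction, the transcription factor Cebpb was higher at 6 h, by 0.49 ± 0.09 with WS1442 and 1.06 ± 0.09 with MeOH eluate, and Ddit4, an inhibitor of mTOR, by 0.51 ± 0.13 with WS1442. The highest difference of the list at 24 h, called or not, was 1.07 with WS1442 and 1.13 with MeOH eluate. Named for their place in the branch after their values were seen, Atf4 passed in no comparison with DMSO (0.05, 0.06, -0.33 and -0.37) and Ddit3 was called higher with MeOH eluate at 6 h (0.47 ± 0.15, adjusted p = 0.0435, limma).

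Of 18 sensors and transducers, which include Ern1, Eif2ak3, Atf6 and the NF-Y subunits, 17 could be tested, and 1, 2, 4 and 1 were lower and 0, 0, 2 and 1 higher in the same order. Those lower were 5.88%, 11.8%, 23.5% and 5.88% of the list, and those higher with WS1442 and MeOH eluate at 24 h 11.8% and 5.88%, where all genes had 1.46%, 8.38%, 11.9% and 8.6% lower and, at 24 h, 12.9% and 9.64% higher. Atf6b, the paralogue of Atf6, was lower with MeOH eluate at 6 h (-0.36 ± 0.08 (SE)) and with WS1442 at 24 h (-0.48 ± 0.08). Nfya, the NF-Y subunit that contacts DNA, was lower with MeOH eluate at 6 h (-0.39 ± 0.10). Creb3, an ER-anchored transcription factor, was higher at 24 h with WS1442 (0.53 ± 0.06) and with MeOH eluate (0.79 ± 0.06), Creb3l2 was higher with WS1442 at 24 h (0.35 ± 0.08), and its relative Creb3l1 was lower with WS1442 at 6 h (-0.71 ± 0.18). The site-1 protease Mbtps1, which cleaves Atf6, was lower with MeOH eluate at 24 h (-0.27 ± 0.06). Ern1, Eif2ak3 and Atf6, named for their role after their values were seen, were not called in any comparison with DMSO.

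Cytosolic heat shock genes, another stress system, went both ways. Of 20, none, 5, 5 and 3 were lower and 3, 5, 5 and 5 higher, so that up to 25% of the list was called in 1 direction, beside 1.46% to 12.9% of all genes. Hspa1a, the inducible Hsp70, was higher by 0.54 ± 0.13 (SE) with WS1442 at 6 h, 0.80 ± 0.13 with MeOH eluate at 6 h, 0.94 ± 0.13 with WS1442 at 24 h and 0.82 ± 0.13 with MeOH eluate at 24 h, although its near copy Hspa1b could contribute to the probe. The small heat shock protein Hspb8 was higher at 6 h, by 0.56 ± 0.10 with WS1442 and 1.01 ± 0.10 with MeOH eluate, and Dnajb1 by 0.21 ± 0.04 with WS1442. Hspa4l was higher by 0.55 ± 0.17 with MeOH eluate at 6 h, 0.53 ± 0.17 with WS1442 at 24 h and 0.70 ± 0.17 with MeOH eluate at 24 h. At 24 h Cryab, the lens crystallin chaperone, was higher by 0.76 ± 0.17 with WS1442 and 1.05 ± 0.17 with MeOH eluate. None of the 10 members of the ER response was called higher in any of these comparisons.

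**Figure D4:**
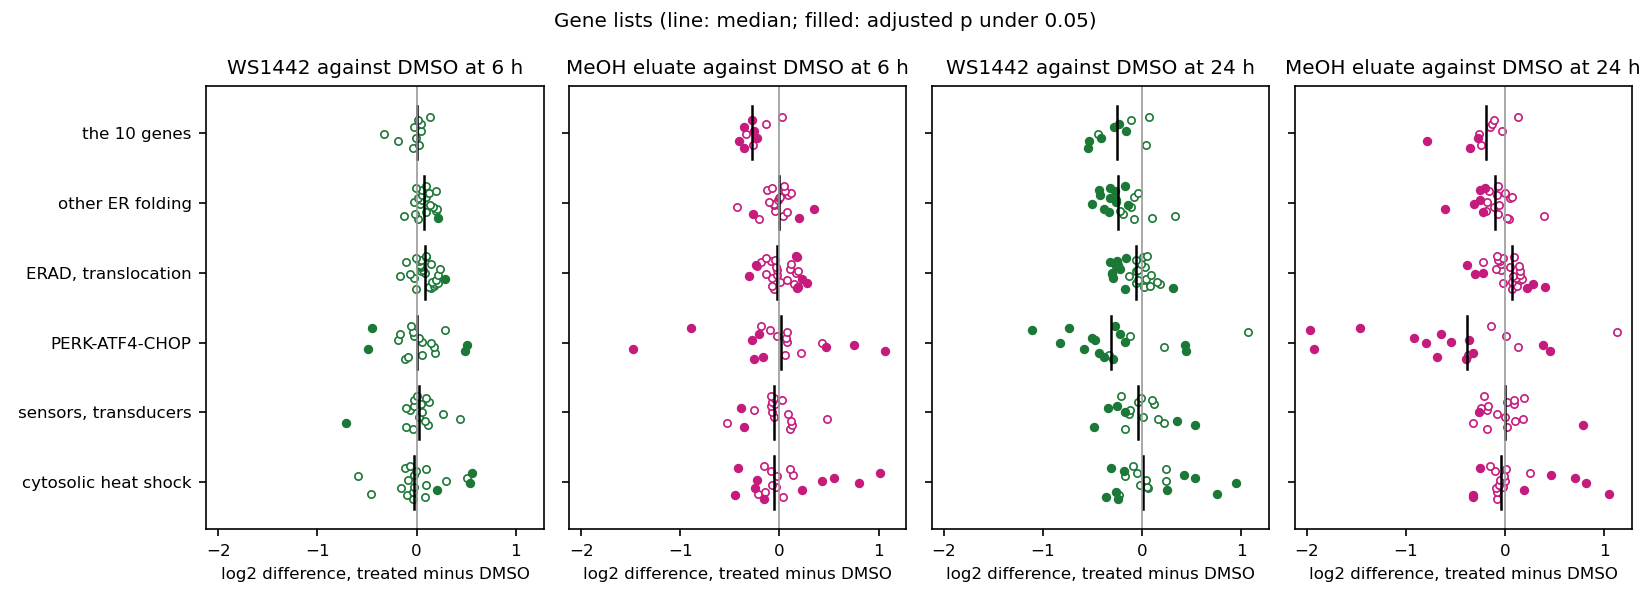
Log2 difference from DMSO of every tested gene in 6 gene lists, with the median of a list as a black line; filled points have an adjusted p-value under 0.05. The median of the 10 genes lies to the left of 0 in all panels but the first, at -0.27, -0.26 and -0.20, and the points of the PERK-ATF4-CHOP list reach furthest to the left in those 3 panels.

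Set beside the promoter sequences above, of the 5 members with an ERSE or ERSE-II 0, 3, 4 and 3 were called lower in the 4 comparisons with DMSO, and of the 4 with a promoter that held neither 0, 2, 1 and 0. Over all genes 1.46%, 8.38%, 11.9% and 8.6% were called lower. Pdia6, which has an element, is counted by its brighter probe. Its dimmer probe was also called lower with MeOH eluate at 6 h and 24 h, where the brighter was not. The ranges of the differences of members with and without an element overlapped in each of the 4 comparisons. Members with an element ran from -0.33 to 0.04 with WS1442 at 6 h, from -0.41 to -0.13 with MeOH eluate at 6 h, from -0.54 to -0.23 with WS1442 at 24 h and from -0.78 to -0.13 with MeOH eluate at 24 h. Those without ran from -0.02 to 0.13, from -0.35 to 0.03, from -0.28 to 0.07 and from -0.24 to 0.13 in the same order. In the other lists the ERSE was found in 4 of 18 folding factors with a promoter (Calr, Canx, Dnajc3 and Ero1b), in 2 of 21 degradation and translocation genes (Syvn1 and Derl3) and in none of 17 PERK branch, 14 sensor and 15 heat shock genes, and ERSE-II in Dnajb11.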

How the data were processed

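RNA of 16 samples was labelled with Cy3 and hybridised to 1-colour Agilent arrays. The authors deposited the scanner's background-subtracted intensities per spot, not normalized between arrays, and a table of linear intensities after quantile normalization. Starting from the former, control spots and spots marked as non-uniform (3 to 25 per array) were left out, replicate spots of a probe were averaged, and log2 intensities were quantile normalized, as in the methods of the study. Member differences from the authors' quantile normalized table were within 0.009 (log2) of those given. Probes that some group showed well above background on all of its arrays were kept, 36727 in number, and the brightest of them stood for a gene, which left 29293 genes. Gene names came from RefSeq transcripts (GRCm38.p6). No count of molecules stands behind a signal, so the number of arrays limits the precision. Differences were tested with limma 3.58.1 in R 4.3.3 on 6 group means (eBayes with trend), with Benjamini-Hochberg adjustment over all genes. Errors are SE of the fit. Figures were drawn in Python 3.11.15. The procedure was tested on simulated data. The 10 genes and the other gene lists, written from general knowledge, were chosen with earlier results of these data known. Named are all members, up to 3 called genes of each other list with the largest change per comparison with DMSO, and the 10 genes most like Hspa5. Alternatives covered background correction, scaling, filter, probe choice, source, spread, blocks, array weights, test and each sample left out. The search around the spots and the results without WS1442 6 h replicate 3 were added after the values were seen.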

Additional observations from a re-analysis of the deposited data

Results flagged for a closer look

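The effect of WS1442 relative to DMSO differed between 24 h and 6 h for 3 of the 10 genes by the interaction test of the fit (limma, adjusted over all genes). The difference of the effects (24 h minus 6 h, log2) was -0.41 for Hsp90b1, -0.27 for Pdia6 and -0.51 for Creld2. None of the 3 was called without DMSO 6 h replicate 1 or without DMSO 24 h replicate 1.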

How the results depend on the processing

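No called member changed direction in any alternative. Members called lower numbered 0 under every setting with WS1442 at 6 h. With single samples of the groups compared left out the counts ran from 1 to 5 for MeOH eluate at 6 h, 3 to 6 for WS1442 at 24 h, 1 to 5 for MeOH eluate at 24 h, 2 to 6 for MeOH eluate against WS1442 at 6 h, 0 to 2 at 24 h, 0 to 6 for the WS1442 effect at 24 h minus 6 h and 0 to 1 for that of the MeOH eluate. The methods' t-test, which does not share the spread between genes, gave 0 in each comparison after adjustment. Normexp background correction, the mean of the kept probes and array weights each called 1 member higher for MeOH eluate against WS1442 at 24 h. Scaling to the 75th percentile called 5 members for the WS1442 effect at 24 h minus 6 h; the cause was not tested. Apart from the WS1442 effect at 24 h minus 6 h with the replicate number as a block, given below, all other settings kept their counts within 1.5 times.

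Deviations of same-numbered samples correlated at -0.24 to 0.31 (median -0.06) over 14 pairs, of which 2 exceeded 0.1. Over 28 pairs with different numbers they correlated at -0.20 to 0.25 (median 0.02), and 8 exceeded 0.1. The 2 DMSO samples of a time point gave values of equal size and opposite sign. The pairs are therefore not independent, and these values cannot exclude that the replicate numbers pair the samples. With the replicate number as a block, 1 member was called for the WS1442 effect at 24 h minus 6 h, 5 for MeOH eluate at 6 h, 5 for WS1442 at 24 h and 3 for MeOH eluate at 24 h.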
